A study of Mus musculus with 106 samples.

Results

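The ileum, the last segment of the small intestine, was compared between mice housed at 10 °C and mice housed at 22 °C, which is room temperature. The comparison used 6 of the 106 samples of the series, the 3 cold-exposed and 3 room-temperature ileum libraries of the table that counts 8 tissues together, and 14081 of its 21647 genes passed the filter on low counts and were tested. The animals were male C57BL/6J mice, 8 weeks old at the start, kept with 2 mice per cage on chow and a 12 h light period, and aged 11 weeks in the labels. The cold group was cooled in steps, with 5 days at 18 °C followed by another 5 at 14 °C, before 2 weeks at 10 °C, and its controls stayed at 22 °C. Each library pooled RNA of 2 mice, so that 6 mice stood behind each group of 3 libraries, and the p-values below measure the spread between pools. A separate warm experiment, with other animals, another supplier, kit and sequencing site, gave 3 ileum libraries of 12-week-old mice after 4 weeks at 34 °C and 3 of their own controls at 22 °C, and is used below for comparison only.

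The ileal epithelium takes up what the more proximal gut leaves in the lumen, and it is the main site where bile acids are recovered. Absorbed fatty acids are bound by small cytosolic proteins, re-esterified on the endoplasmic reticulum and packed with apolipoproteins into chylomicrons, while sugars and amino acids cross by their own carriers. The epithelium renews itself within days, follows feeding and a local circadian clock, and like other cells answers misfolded protein by making heat shock chaperones under the transcription factor HSF1.

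The libraries carried the marks of distal small intestine. The distal markers Slc10a2, Fabp6 and Osr2 summed to 5406, 7120.4 and 6602 CPM (counts scaled to a common library size with TMM factors) at 10 °C and to 3621, 4502 and 4469 CPM at 22 °C, against 7.87, 11.6 and 9.59 CPM and 6.94, 9.19 and 9.26 CPM for the proximal markers Gata4, Onecut2, Fabp1 and Lct. The summed distal markers did not overlap between the groups and all 3 distal genes rose, whereas the proximal sums overlapped. Osr2, a transcription factor of the distal list, had the smallest change (log2FC 0.23, adjusted p = 0.22, not past the unadjusted limit without 10 °C replicate 2, 22 °C replicate 1 or 22 °C replicate 3) and did not pass with library-size scaling. The 16 general epithelial markers also summed higher at 10 °C, 21805, 21203 and 19511 CPM against 18915, 19042 and 18252 CPM, with 6 higher and none lower at p of at most 0.05, a count that was 2 when counts were scaled by library size alone and 3 without 10 °C replicate 2, 22 °C replicate 2 or 22 °C replicate 3. The part of these cell markers in the results below was not tested, and in bulk tissue fewer cells of a type and less RNA per cell cannot be told apart. Total counts ran from 16259467 to 25964912 per library, and the correlation of log2 CPM between libraries of 1 group ran from 0.973 to 0.985.

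A gene is said here to have risen or fallen at an unadjusted p of at most 0.05 in edgeR's quasi-likelihood test, and it is called when it also changed by more than 1.5-fold, which are the limits of the study. At 10 °C, 1412 genes rose, 10.0% of those tested, and 1002 fell, 7.12%. Of these, 203 higher genes (1.44%) and 178 lower genes (1.26%) were called. The called genes include 27 higher and 36 lower ones that averaged under 1 CPM in 1 group and passed the filter only through the other. With library-size scaling in place of TMM, the trimmed mean of M values, the split changed to 159 higher and 252 lower, and at p of at most 0.05 to 875 higher and 1630 lower, while the median log2FC of all genes moved from -0.01 to -0.06. After Benjamini-Hochberg adjustment in edgeR, 9 genes (0.0639%) passed 0.05, and in 3319 genes (23.6%) the 2 groups did not overlap. Genes named below other than those 9 therefore rest on an unadjusted p, with the adjusted p given where they are described in full.

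**Figure D1:**
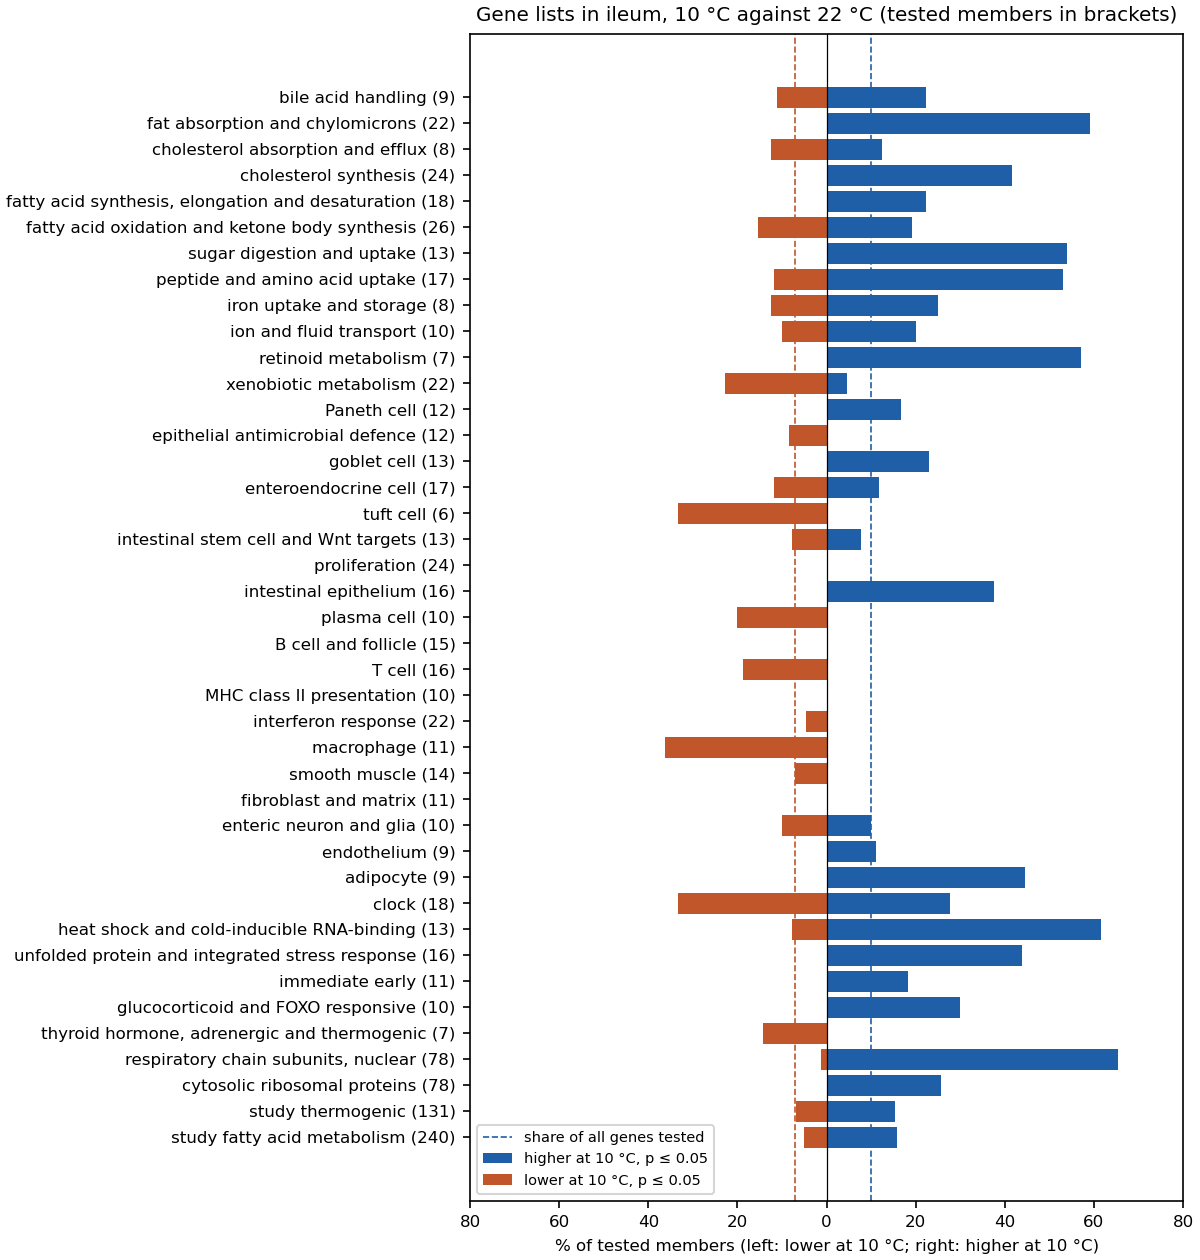
Share of tested members of each gene list that were higher (right, blue) or lower (left, orange) at 10 °C than at 22 °C in ileum at p of at most 0.05, in % of the members tested, whose number is in brackets, for lists with 5 or more tested members. Dashed lines mark the shares over all genes tested, 10.0% higher and 7.12% lower. The bars include members that averaged under 1 CPM in 1 group and passed the filter only through the other. Without such members 5 of 11 sugar, 3 of 24 fatty acid oxidation and 3 of 8 adipocyte genes were higher. Among the lists drawn, the bars for nuclear respiratory chain, heat shock, fat absorption and retinoid genes reach farthest to the right, and those for macrophage, tuft cell and clock genes farthest to the left.

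The heat shock chaperones were higher in the cold ileum. Of 13 genes of a list of heat shock and cold-inducible RNA-binding proteins, 8 rose and 1 fell, with 7 and 1 of them called, and the median log2FC of the list was 0.62 against -0.01 over all genes. The count of risen genes stayed between 7 and 10 when any single library was left out. Hspa1b, an inducible Hsp70 chaperone (chromosome 17, 34956436 to 34959238 in GRCm38), had the smallest p of all genes tested. The 150 bases before its start are shown with those of 3 other list members because they hold the inverted repeat GAANNTTC, the core of the element bound by HSF1, and the capitals mark it (RefSeq, GRCm38.p6, written 5′ to 3′ on the gene's strand). They lie at chr17:34959239-34959388 (minus strand), chr17:34972157-34972306 (minus), chr4:40722318-40722467 (plus) and chr5:135887769-135887918 (plus).
Hspa1b: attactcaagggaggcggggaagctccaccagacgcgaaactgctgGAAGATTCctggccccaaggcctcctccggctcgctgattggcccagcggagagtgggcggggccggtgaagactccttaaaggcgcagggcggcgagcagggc
Hspa1a: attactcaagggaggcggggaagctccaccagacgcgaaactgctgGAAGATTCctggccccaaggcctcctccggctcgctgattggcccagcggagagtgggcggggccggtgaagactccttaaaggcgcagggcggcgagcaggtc
Dnaja1: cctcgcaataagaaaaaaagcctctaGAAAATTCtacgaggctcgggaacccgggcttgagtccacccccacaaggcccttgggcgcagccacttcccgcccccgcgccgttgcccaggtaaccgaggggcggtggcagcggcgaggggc
Hspb1: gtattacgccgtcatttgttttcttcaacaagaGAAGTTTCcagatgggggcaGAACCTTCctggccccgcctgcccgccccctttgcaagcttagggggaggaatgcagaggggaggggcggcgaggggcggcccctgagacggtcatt

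GAANNTTC, which reads the same on both strands, was present within the 250 bases before the start in 6 of the 9 list members whose promoter was in the table (Hspa1a, Hspa1b, Dnaja1, Hspd1, Hspe1 and Hspb1), against 7.73% of 27025 genes. The longer form GAANNTTCNNGAA, on either strand and always overlapping the shorter one, was present in 2 of the 9, Hspd1 and Hspe1, against 0.514% of all genes. A match describes letters and not binding, and Hspb1, whose window holds 2 matches, did not pass the test (log2FC 0.09, adjusted p = 0.909). Hspd1, with both forms, did not pass either. Hsph1 and Dnajb1, which rose, and Cirbp, which fell, had promoters without a match to GAANNTTC. The windows of Hspa1b and Hspa1a are identical at 149 of 150 bases, so that their matches do not count as independent. Whether the windows of Hspd1 and Hspe1 share sequence was not tested. Reads of the near-identical paralogs Hspa1b and Hspa1a may have been split between them, so that their separate levels are uncertain.

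Hspa1b was at 16.2, 16.3 and 14.2 CPM in the 10 °C libraries and at 4.26, 4.99 and 5.26 CPM in the 22 °C libraries. The groups did not overlap, and the mean was 3.21-fold higher in the cold (log2FC 1.68 ± 0.13 SE, adjusted p = 0.0289, edgeR). Hspa1a, its paralog, was at 6.97, 9.77 and 6.39 CPM against 2.39, 1.78 and 2.9 CPM (log2FC 1.70 ± 0.24 SE, adjusted p = 0.0608). Hsph1, a nucleotide exchange factor that works with Hsp70, was at 136, 133 and 157 CPM against 71.5, 43.4 and 52.5 CPM (log2FC 1.35 ± 0.17 SE, adjusted p = 0.0603). Every cold library lay above every control library for both genes. Dnajb1, an Hsp40 co-chaperone, was at 77.1, 67.3 and 78.7 CPM against 34.1, 40.5 and 43.01 CPM (log2FC 0.92 ± 0.11 SE, adjusted p = 0.0507), and the constitutive Hsp70 Hspa8 at 339, 279 and 282 CPM against 147, 160.5 and 199 CPM (log2FC 0.83 ± 0.13 SE, adjusted p = 0.0665). Both were again apart between the groups. Dnaja1 rose with log2FC 0.62 (adjusted p = 0.0736), Hsp90aa1, the inducible Hsp90, with 0.63 (adjusted p = 0.212) and Hspe1, a mitochondrial co-chaperonin, with 0.45 (adjusted p = 0.159). Hsp90aa1 no longer passed without 10 °C replicate 3 or 22 °C replicate 2. Hsp90ab1, the constitutive Hsp90, had log2FC 0.09 (adjusted p = 0.842) and Hspd1 0.20 (adjusted p = 0.461).

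The cold-inducible RNA-binding proteins did not move together. Cirbp, named for its induction in cooled cells, was at 20.5, 17.7 and 18.4 CPM at 10 °C and 26.7, 33.6 and 30.3 CPM at 22 °C. All cold libraries lay below all controls (log2FC -0.68 ± 0.11 SE, adjusted p = 0.0736). Rbm3, its close relative, was at 50.6, 55.5 and 63.5 CPM against 37.96, 43.9 and 55.9 CPM, with overlapping groups (log2FC 0.30, adjusted p = 0.357).

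**Figure D2:**
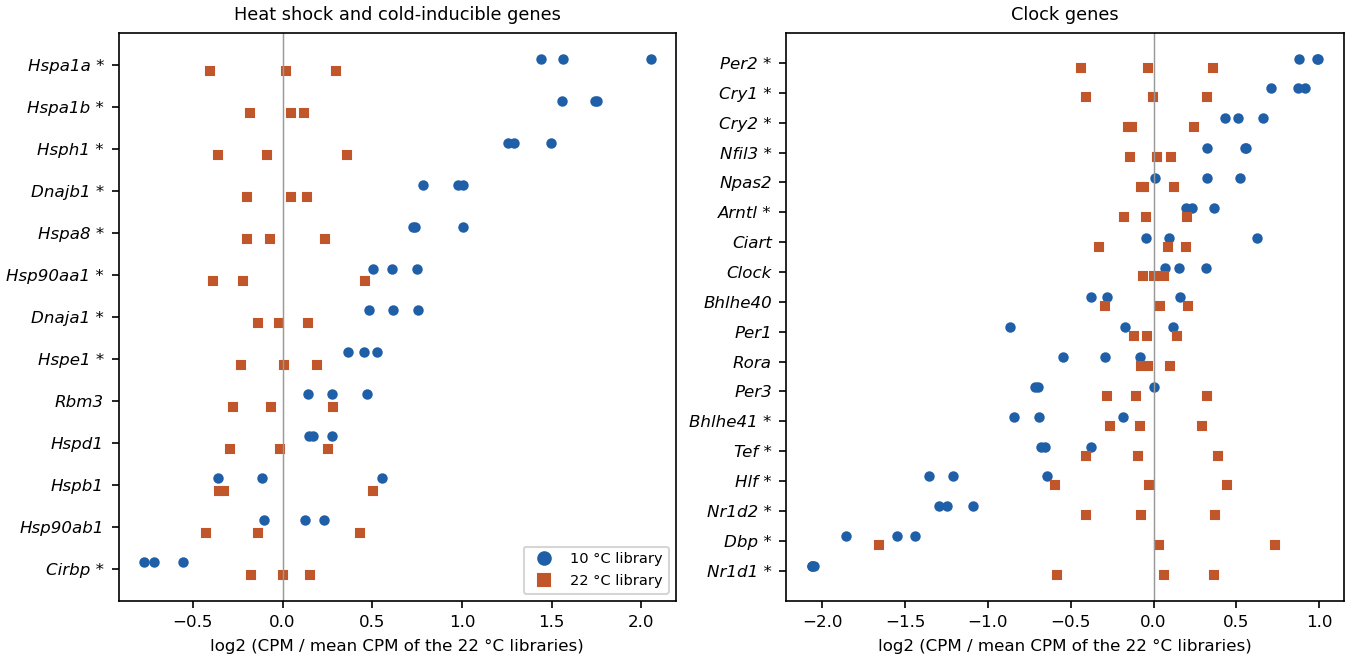
CPM of each ileum library divided by the mean of the 22 °C libraries, on a log2 axis, for the heat shock and cold-inducible genes (left) and the clock genes (right). Circles are the 3 libraries at 10 °C and squares the 3 at 22 °C, and an asterisk marks p of at most 0.05. Hspa1a, Hspa1b, Hsph1, Dnajb1 and Hspa8 show 10 °C circles to the right of all squares, Cirbp, Nr1d1 and Nr1d2 to the left.

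Of 16 chaperones and transcription factors of the unfolded protein and integrated stress responses, 7 rose, none fell and 9 did not pass the test, and 1 was called. The called gene was Atf3, a stress-induced transcription factor, at 61.9, 70.1 and 58.1 CPM against 47.3, 33.1 and 40.4 CPM (log2FC 0.66 ± 0.14 SE, adjusted p = 0.107). Hspa5, the Hsp70 of the endoplasmic reticulum, was at 1319.6, 1086 and 1150.2 CPM against 885, 773 and 798 CPM (log2FC 0.53 ± 0.10 SE, adjusted p = 0.0913), and Atf4, the central factor of the integrated stress response, at 222, 208 and 212 CPM against 168, 168 and 166 CPM (log2FC 0.36 ± 0.06 SE, adjusted p = 0.0671). Cold and control libraries were apart for all 3 genes. Manf, Creld2 and Sdf2l1, secretory stress factors, rose with log2FC 0.54, 0.44 and 0.35, and the transcription factor Ddit3 with 0.37 (adjusted p = 0.287, not past the unadjusted limit without 10 °C replicate 1, 10 °C replicate 3, 22 °C replicate 1 or 22 °C replicate 2). Among 11 immediate early genes, Jun rose with log2FC 0.45 (adjusted p = 0.107) and Klf4 with 0.19 (adjusted p = 0.206, not past the unadjusted limit without 22 °C replicate 3), and 4 rose without 22 °C replicate 3. Among 10 genes known to answer glucocorticoids or FOXO factors, 3 rose and none fell, and 2 were called. Without 10 °C replicate 2 none was called, and 1 was without 10 °C replicate 3, 22 °C replicate 1 or 22 °C replicate 2. Sgk1, a kinase that regulates sodium channels, was at 244, 412 and 235 CPM against 202, 143 and 134 CPM (log2FC 0.90 ± 0.25 SE, adjusted p = 0.162), with the highest cold value in replicate 2. Tsc22d3, a glucocorticoid-induced leucine zipper, had log2FC 0.59 (adjusted p = 0.208) and did not pass without 10 °C replicate 2 or 22 °C replicate 2. Ddit4, an inhibitor of mTORC1, had log2FC 0.44 (adjusted p = 0.132).

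Clock genes moved in both directions. Of 18 clock genes, 5 rose and 6 fell, with 2 and 4 called. Nr1d1, which encodes the repressor REV-ERBα (chromosome 11, 98767932 to 98775333 in GRCm38), was at 5.66, 5.67 and 5.7 CPM at 10 °C and 15.8, 24.7 and 30.5 CPM at 22 °C. The cold values were nearly equal to each other and all below the controls, a 4.17-fold lower mean (log2FC -2.06 ± 0.23 SE, adjusted p = 0.0488). Nr1d2, the related REV-ERBβ, was at 20.95, 20.3 and 23.4 CPM against 37.5, 47.3 and 64.4 CPM (log2FC -1.21 ± 0.19 SE, adjusted p = 0.0665). Dbp, a PAR bZIP output factor of the clock, was at 1.27, 1.69 and 1.57 CPM against 1.46, 4.69 and 7.62 CPM, with the control libraries themselves spread over several fold (log2FC -1.63 ± 0.53 SE, adjusted p = 0.208). It did not pass without 10 °C replicate 1 or 22 °C replicate 3. The related Hlf had log2FC -1.03 (adjusted p = 0.202, not past the unadjusted limit without 22 °C replicate 3) and Tef -0.57 (adjusted p = 0.229, not past the unadjusted limit without 10 °C replicate 1, 10 °C replicate 3 or 22 °C replicate 3). In the rising direction, Per2, a core repressor, was at 55.7, 51.3 and 55.4 CPM against 35.9, 20.6 and 27.4 CPM (log2FC 0.96 ± 0.18 SE, adjusted p = 0.0913). Cry1, its partner, was at 56.7, 55.2 and 49.3 CPM against 37.6, 22.7 and 29.98 CPM (log2FC 0.84 ± 0.17 SE, adjusted p = 0.0998). Cry2 and Nfil3, an opponent of the PAR bZIP factors, had log2FC 0.54 (adjusted p = 0.134) and 0.48 (adjusted p = 0.121), and the activator Arntl 0.27 (adjusted p = 0.262, not past the unadjusted limit without 10 °C replicate 1, 10 °C replicate 2, 22 °C replicate 2 or 22 °C replicate 3). The time of day of sampling was not analysed here. In the 22 °C libraries Nr1d1, Nr1d2, Dbp, Hlf and Tef were lowest in replicate 1 and highest in replicate 3, and 2 clock genes, Nr1d1 and Nr1d2, still fell without 22 °C replicate 3, in place of 6. Without 10 °C replicate 1 the count was 3. The E-box CACGTG, the site of the CLOCK and ARNTL pair, which reads the same on both strands, was within the 250 bases before the start in 5 of the 16 clock genes with a promoter in the table (Per1, Cry1, Tef, Bhlhe41 and Ciart), against 6.86% of all genes.

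Genes of fat uptake and chylomicron assembly were higher in the cold ileum. Of 22 such genes, 13 rose and none fell, 6 of them called, with a median log2FC of 0.35. With library-size scaling 11 rose, and 10 to 16 rose when single libraries were left out. Fabp2, the intestinal fatty acid binding protein (chromosome 3, 122895072 to 122899506 in GRCm38), was at 5619, 5338 and 5655 CPM at 10 °C and 2481, 2439 and 1804 CPM at 22 °C. The groups lay far apart, a 2.47-fold difference of the means (log2FC 1.30 ± 0.14 SE, adjusted p = 0.0488). Apolipoproteins of the high-density and chylomicron particles were also higher. Apoa1 was at 4246, 5133 and 4067 CPM against 2465, 2542 and 2665 CPM (log2FC 0.81 ± 0.12 SE, adjusted p = 0.0608). Apoc2, the activator of lipoprotein lipase, was at 27.3, 24.96 and 32.8 CPM against 11.1, 14.6 and 13.5 CPM (log2FC 1.12 ± 0.14 SE, adjusted p = 0.0603), and Apoc3, which slows particle clearance, at 17.2, 23.03 and 16.2 CPM against 8.98, 9.78 and 9.87 CPM (log2FC 0.98 ± 0.15 SE, adjusted p = 0.0665). None of the cold values overlapped the controls in these 3 genes. Slc27a4, a fatty acid transport protein, had log2FC 0.59 (adjusted p = 0.0608) and Pla2g12b, a factor needed for lipoprotein secretion, 0.62 (adjusted p = 0.0873). The enzymes of re-esterification changed less. Dgat1 rose with log2FC 0.35, Agpat2 with 0.35 and Gpat3 with 0.23, each under 1.5-fold. Mogat2, which makes diacylglycerol, had log2FC 0.30 (adjusted p = 0.251, not past the unadjusted limit without 10 °C replicate 1, 10 °C replicate 2, 22 °C replicate 1 or 22 °C replicate 2). Apob, the structural protein of the chylomicron, had log2FC 0.16 (adjusted p = 0.552) and Mttp, which loads it with lipid, -0.04 (adjusted p = 0.853). Apoa4 varied within both groups, at 209, 121 and 241 CPM against 38.5, 109 and 185 CPM (log2FC 0.77, adjusted p = 0.462). Fabp1, the liver-type binding protein of the proximal gut, was low throughout, at 3.08, 5.43 and 3.63 CPM against 3.56, 5.19 and 5.41 CPM (log2FC -0.23, adjusted p = 0.666).

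Some sugar and retinoid genes were also higher. Of 13 genes of sugar digestion, uptake and handling, 2, Slc2a2 and Lct, averaged under 1 CPM at 22 °C and passed the filter on low counts only through the cold libraries, so that their difference is no finding. Of the other 11 genes, 5 rose, 3 of them called, and none fell. Of all 13 genes 5 were called with all libraries and 2 without 10 °C replicate 2. G6pc, glucose-6-phosphatase, was at 15.7, 26.6 and 13.5 CPM against 4.72, 8.15 and 8.69 CPM (log2FC 1.36 ± 0.31 SE, adjusted p = 0.124), and Treh, the brush-border trehalase, at 105, 139 and 107 CPM against 60.5, 71.5 and 84.6 CPM (log2FC 0.70 ± 0.15 SE, adjusted p = 0.11). Both were apart between the groups, with 10 °C replicate 2 highest. Pck1, a gluconeogenic enzyme, and Khk, ketohexokinase, had log2FC 0.70 (adjusted p = 0.217) and 0.50 (adjusted p = 0.198). Pck1 did not pass without 22 °C replicate 3, nor Khk without 10 °C replicate 2. Slc2a2, the basolateral glucose and fructose exit carrier GLUT2, was at 2.13, 4.82 and 2.19 CPM against 0.117, 0.148 and 0.381 CPM and Lct, lactase, at 0.95, 3.5 and 1.94 CPM against 0.933, 0.642 and 0.838 CPM, given as values without a test. The apical carriers Slc5a1 (SGLT1, log2FC -0.02) and Slc2a5 (GLUT5, 0.22) and the disaccharidases Sis (0.29) and Mgam (0.003) did not pass the test. Of 7 retinoid genes 4 rose, 3 of them called and 1 without 10 °C replicate 2. Rbp2, the enterocyte retinol binding protein, was at 81.5, 82.4 and 79.6 CPM against 37.6, 43.6 and 51.4 CPM (log2FC 0.88 ± 0.11 SE, adjusted p = 0.0603). Lrat, which esterifies retinol, was at 41.7, 50.4 and 40.2 CPM against 34.5, 23.6 and 23.7 CPM (log2FC 0.70 ± 0.17 SE, adjusted p = 0.132), and Aldh1a1, which makes retinoic acid, at 234, 268 and 221 CPM against 136, 159 and 160.1 CPM (log2FC 0.67 ± 0.10 SE, adjusted p = 0.0608). All 3 were higher in every cold library than in any control. The fourth, the transcription factor Isx, had log2FC 0.20 (adjusted p = 0.203, not past the unadjusted limit without 10 °C replicate 2 or 22 °C replicate 3) and did not pass with library-size scaling.

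**Figure D3:**
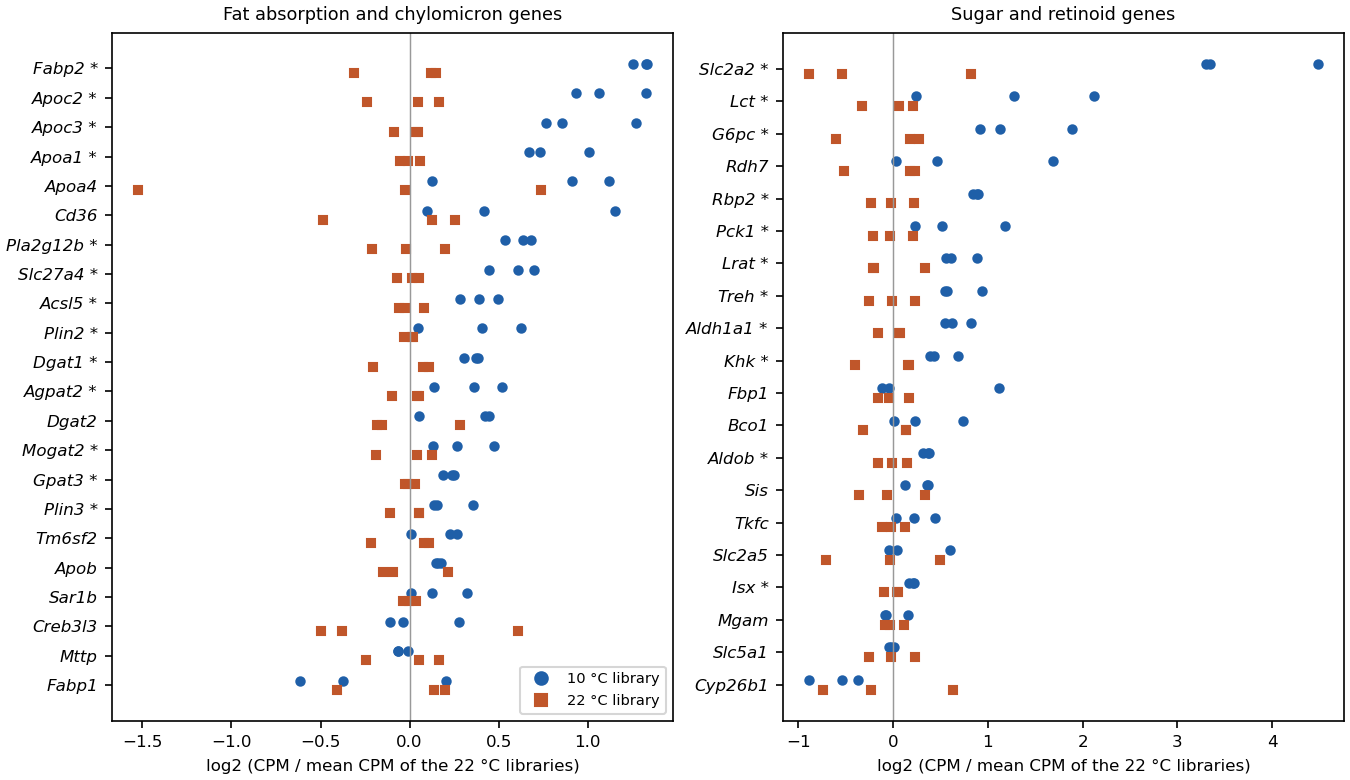
CPM of each ileum library divided by the mean of the 22 °C libraries, on a log2 axis, for 22 fat absorption and chylomicron genes (left) and 20 sugar and retinoid genes (right). Circles are libraries at 10 °C, squares libraries at 22 °C, and an asterisk marks p of at most 0.05. Slc2a2 and Lct, which averaged under 1 CPM at 22 °C, are drawn for their values only, and their asterisks are no finding. Fabp2, Apoc2, Apoc3 and Apoa1 (left) and G6pc (right) show 10 °C circles to the right of all squares, whereas the circles of Fabp1, Mttp and Slc5a1 overlap the range of the squares.

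Genes of peptide and amino acid transport were also higher, by smaller steps. Of 17 genes, 9 rose and 2 fell, and 1 was called. Slc16a10, an exit carrier for aromatic amino acids, was at 117, 115 and 102 CPM against 76.6, 69.1 and 65.02 CPM (log2FC 0.67 ± 0.09 SE, adjusted p = 0.0603). Slc6a19, the main neutral amino acid importer, was at 1079.8, 1069 and 977 CPM against 656, 774 and 773 CPM (log2FC 0.50 ± 0.09 SE, adjusted p = 0.0912). The groups were apart for both. The dipeptide carrier Slc15a1 had log2FC 0.35 (adjusted p = 0.193), while the glutamate carrier Slc1a1 fell (log2FC -0.38, adjusted p = 0.195). Slc6a18, a neutral amino acid carrier of the same family as Slc6a19, was outside the list and among the 10 largest rises, at 17.3, 9.47 and 13.3 CPM against 4.49, 5.19 and 3.43 CPM (log2FC 1.62 ± 0.25 SE, adjusted p = 0.0665). In iron handling, the ferroxidase Heph and the ferritin chain Fth1 rose among 8 genes, with log2FC 0.21 and 0.16, and neither passed with library-size scaling. Cybrd1, a ferric reductase, fell with log2FC -0.43 (adjusted p = 0.193, not past the unadjusted limit without 22 °C replicate 2). In ion and fluid transport, 2 of 10 genes rose, of which Guca2a, guanylin, had log2FC 0.35 (adjusted p = 0.124) and the anion exchanger Slc26a6 0.28 (adjusted p = 0.261, not past the unadjusted limit without 10 °C replicate 2, 22 °C replicate 1 or 22 °C replicate 2). Atp1b1, a sodium pump subunit, fell with log2FC -0.21 (adjusted p = 0.226, not past the unadjusted limit without 10 °C replicate 1 or 22 °C replicate 2).

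The bile acid genes split. Of 9 tested, 2 rose and 1 fell. Fabp6, the ileal bile acid binding protein, was at 3918, 5872 and 5160.2 CPM against 2582, 3458 and 3405 CPM (log2FC 0.66 ± 0.18 SE, adjusted p = 0.161), and Slc10a2, the apical bile acid importer, at 1435, 1190.1 and 1389.7 CPM against 994, 995 and 1019 CPM (log2FC 0.42 ± 0.09 SE, adjusted p = 0.114). Every cold library was above every control for both. Abcc3, a basolateral exporter of conjugates, was at 149, 126 and 118 CPM against 174, 235 and 198 CPM, all lower in the cold (log2FC -0.63 ± 0.13 SE, adjusted p = 0.102). The exporter subunits Slc51a and Slc51b (log2FC -0.04 and 0.12) and the bile acid receptor Nr1h4 (-0.09) did not pass the test. Fgf15, the hormone by which the ileum signals bile acid return to the liver, was at 2.13, 27.1 and 13.3 CPM against 20.3, 3.9 and 34.4 CPM, a spread within each group wider than the difference between them (log2FC -0.48, adjusted p = 0.81). Nr0b2, which encodes the repressor SHP, and Gpbar1, a bile acid receptor, were below the filter on low counts.

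Some genes of cholesterol synthesis were slightly higher. Of 24 genes 10 rose, none fell and none reached 1.5-fold, with a median log2FC of 0.24. The count depended on single libraries, at 18 without 22 °C replicate 1, 1 of them called, and at 6 without 10 °C replicate 2, 22 °C replicate 2 or 22 °C replicate 3. With library-size scaling 7 rose and 1 fell, and 1 also fell without 10 °C replicate 2. Tm7sf2, a sterol reductase, was at 55.4, 61.8 and 54.3 CPM against 41.9, 39.4 and 41.8 CPM (log2FC 0.48 ± 0.08 SE, adjusted p = 0.0734), and Cyp51, the lanosterol demethylase, at 361, 367 and 366 CPM against 322, 262 and 261 CPM (log2FC 0.37 ± 0.09 SE, adjusted p = 0.137). Both were apart between the groups. Of 8 genes of cholesterol absorption and efflux, Npc1l1, the sterol importer, rose (log2FC 0.35, adjusted p = 0.11) and Abca1, the exporter to high-density lipoprotein, fell (log2FC -0.53, adjusted p = 0.167).

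Fatty acid synthesis rose in a few genes that varied strongly among libraries. Of 18 genes of synthesis, elongation and desaturation, 4 rose, all 4 called, and none fell. Scd1, the Δ9 desaturase, was at 1171, 688 and 339 CPM at 10 °C and 285, 90.03 and 177 CPM at 22 °C. The groups were apart although the cold values themselves ranged several-fold (log2FC 1.99 ± 0.52 SE, adjusted p = 0.15). Thrsp, a regulator of lipogenesis, was at 60.8, 34.8 and 12.7 CPM against 13.1, 2.67 and 4.84 CPM (log2FC 2.42 ± 0.69 SE, adjusted p = 0.172), and Pnpla3, a lipid droplet acyl hydrolase, at 18.96, 9.35 and 5.01 CPM against 5.19, 1.88 and 3.09 CPM (log2FC 1.73 ± 0.53 SE, adjusted p = 0.186). In both, 10 °C replicate 3 lay just below 22 °C replicate 1. Me1, malic enzyme, had log2FC 0.98 (adjusted p = 0.26, not past the unadjusted limit without 10 °C replicate 1, 10 °C replicate 2, 22 °C replicate 2 or 22 °C replicate 3). Fasn, fatty acid synthase, was at 633, 529 and 249 CPM against 403, 234 and 198 CPM (log2FC 0.76, adjusted p = 0.348). Without 10 °C replicate 3 or 22 °C replicate 1, 9 genes of the list rose. The elongases Elovl1 and Elovl7 did not pass the test. Elovl1, which extends saturated acids, was at 133, 128 and 118 CPM against 121, 113 and 117 CPM (log2FC 0.11, adjusted p = 0.445), and Elovl7 at 139.8, 123 and 148 CPM against 139, 130.2 and 130.0 CPM (log2FC 0.04, adjusted p = 0.836).

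Adipocyte markers varied in the same libraries. The 10 adipocyte markers, of which 9 were tested and Ucp1 was below the filter, summed to 472, 324 and 170.3 CPM at 10 °C. At 22 °C they summed to 180.1, 99.6 and 189 CPM, which overlapped. Adig averaged under 1 CPM at 22 °C and passed the filter only through the cold libraries, so that its difference is no finding. Of the other 8 tested markers Retn, Fabp4 and Cidec rose and were called, and none fell. Of all 9 tested markers, 8 rose without 10 °C replicate 3. A single marker, Retn, rose of 8 tested without 10 °C replicate 1. Adig was below the filter in that fit and was not tested there, while Fabp4 and Cidec no longer passed. Retn, resistin, was at 15.3, 9.53 and 4.95 CPM against 3.73, 0.692 and 2.13 CPM (log2FC 2.21 ± 0.59 SE, adjusted p = 0.155). Fabp4, the adipocyte fatty acid binding protein, was at 173, 84.4 and 55.3 CPM against 45.5, 19.6 and 48.9 CPM (log2FC 1.46 ± 0.47 SE, adjusted p = 0.204), and did not pass without 10 °C replicate 1. Adipoq, adiponectin, was at 48.1, 25.4 and 10.2 CPM against 14.6, 3.95 and 13.5 CPM (log2FC 1.39, adjusted p = 0.305). The order of the libraries, with 10 °C replicate 1 highest and 22 °C replicate 2 lowest, was shared by Scd1, Thrsp, Pnpla3, Retn, Fabp4 and Adipoq. The part of adipose tissue in the Scd1, Thrsp and Pnpla3 values was not tested.

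**Figure D4:**
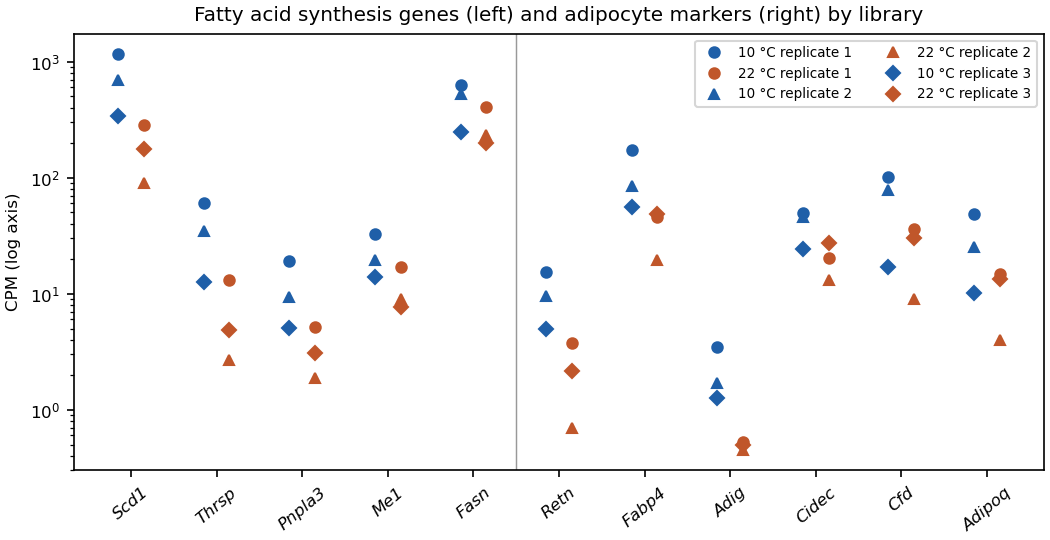
CPM on a log axis of fatty acid synthesis genes (left of the grey line) and adipocyte markers (right) in each ileum library, blue at 10 °C and orange at 22 °C, with circles, triangles and diamonds for replicates 1, 2 and 3. In every gene shown, 10 °C replicate 1 is the highest library, and in most of them 22 °C replicate 2 is the lowest.

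Fatty acid oxidation showed no common direction. Of 26 genes, 5 rose and 4 fell. Of the 5, Acaa1b and Ucp3 averaged under 1 CPM at 22 °C and passed the filter only through the cold libraries, and of the other 24 genes 3 rose and 4 fell. The 5 became 2 with library-size scaling or without 10 °C replicate 2 or 22 °C replicate 1, and 3 without 10 °C replicate 1 or 22 °C replicate 2. Cpt1a, which admits fatty acids to the mitochondrion, was at 174, 240.3 and 158 CPM against 266, 291 and 259.6 CPM (log2FC -0.51 ± 0.15 SE, adjusted p = 0.178). Angptl4, an inhibitor of lipoprotein lipase, was at 45.2, 58.8 and 29.95 CPM against 16.4, 26.8 and 21.4 CPM, all higher in the cold (log2FC 1.05 ± 0.26 SE, adjusted p = 0.139). Acot1, a cytosolic thioesterase, had log2FC -0.89 (adjusted p = 0.163). Ucp2, the uncoupling protein of intestine, had log2FC -0.09 (adjusted p = 0.59), and Ucp3 was at 2.13, 1.02 and 0.627 CPM against 0.7, 0.543 and 0.533 CPM, given without a test.

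Many nuclear genes of the respiratory chain were a little higher. Of 78 tested, 51 rose and 1 fell, the median log2FC was 0.25, and Cox6b2 alone was called. With library-size scaling 39 rose, and 30 rose without 10 °C replicate 1 and 32 without 22 °C replicate 1. No mitochondrially encoded gene was in the tested set. Of 78 cytosolic ribosomal protein genes, 20 rose and none fell, with a median of 0.17. That count was 10 with library-size scaling, 9 without 10 °C replicate 1 or 10 °C replicate 3, 11 without 22 °C replicate 1, 13 without 22 °C replicate 2 and 31 without 10 °C replicate 2. None of the 24 proliferation genes rose or fell, and 2 rose without 10 °C replicate 2. Of 7 tested genes of thyroid hormone, adrenergic and thermogenic signalling, Thra, a thyroid hormone receptor, fell, at 41.1, 48.1 and 37.8 CPM against 57.3, 64.7 and 59.2 CPM (log2FC -0.51 ± 0.10 SE, adjusted p = 0.0998). Ucp1, the brown fat uncoupling protein, was below the filter.

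Some genes of xenobiotic metabolism were lower in the cold. Of 22 tested, with a median log2FC of 0.10, 5 fell and 1 rose, 3 of the fallen being called. Without 10 °C replicate 3 or 22 °C replicate 2, 3 fell and 1 was called. Cyp2c55, an intestinal cytochrome P450, was at 9.64, 32.6 and 17.6 CPM at 10 °C and 51.7, 101 and 70.7 CPM at 22 °C. The groups were apart, and the mean was 3.76-fold lower in the cold (log2FC -1.91 ± 0.43 SE, adjusted p = 0.12). Cyp3a25 and Gstm3, a glutathione transferase, had log2FC -0.75 (adjusted p = 0.244) and -0.95 (adjusted p = 0.25), and without 10 °C replicate 3 or 22 °C replicate 2 neither passed, nor did Cyp3a25 without 10 °C replicate 1 or 22 °C replicate 3. Ces2a, a carboxylesterase, was at 104, 123 and 112 CPM against 129, 188 and 173 CPM (log2FC -0.53 ± 0.14 SE, adjusted p = 0.147). Ahr, the aryl hydrocarbon receptor, fell with log2FC -0.31 (adjusted p = 0.182), and Sult1d1, a sulfotransferase, rose with 0.31 (adjusted p = 0.169).

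Some markers of secretory and immune cells passed the test, where 10.0% of all genes tested rose and 7.12% fell. Of 13 goblet cell markers 3 rose, the trefoil peptide Tff3 (log2FC 0.35, adjusted p = 0.147), the lectin Zg16 (0.42, adjusted p = 0.171) and the disulfide isomerase Agr2 (0.38, adjusted p = 0.251, not past the unadjusted limit without 10 °C replicate 1, 10 °C replicate 2, 10 °C replicate 3 or 22 °C replicate 3). Of 12 Paneth cell markers the defensins Defa21 and Defa22 rose, which share reads with other defensins, 9 rose without 10 °C replicate 2 and 0 without 10 °C replicate 1, 10 °C replicate 3 or 22 °C replicate 2. Of 17 enteroendocrine markers, the peptide hormones Nts (log2FC 0.19) and Sct (0.24) rose, neither with library-size scaling. The granule protein Chga fell with log2FC -0.35 (adjusted p = 0.182) and Chgb with -0.28 (adjusted p = 0.277, not past the unadjusted limit without 10 °C replicate 1, 10 °C replicate 3, 22 °C replicate 1 or 22 °C replicate 2). Of 6 tuft cell markers Dclk1, a tuft cell kinase, fell with log2FC -0.57 (adjusted p = 0.0998) and Sh2d6 with -0.37 (adjusted p = 0.28, which no longer passed in 5 of the 6 fits without a single library). The sums of all 8 tuft markers, those below the filter included, were apart at 54.8, 67.1 and 54.6 CPM against 77.9, 72.4 and 84.6 CPM. Of 13 stem cell genes and Wnt targets the receptor Lgr5 fell with log2FC -0.34 (adjusted p = 0.25, not past the unadjusted limit without 10 °C replicate 1, 10 °C replicate 3, 22 °C replicate 1 or 22 °C replicate 2), and Axin2 rose with 0.18 (adjusted p = 0.277, not past the unadjusted limit without 10 °C replicate 2, 10 °C replicate 3, 22 °C replicate 2 or 22 °C replicate 3). Of 12 antimicrobial genes none rose and 1 fell, but without 10 °C replicate 2, 5 of 13 rose and 4 were called. The summed level of all 14 antimicrobial genes, those below the filter included, was 29078, 9809 and 30373 CPM at 10 °C, lowest in that library. It was 16747, 23033 and 21991 CPM at 22 °C. The gene that fell was Pigr, the carrier of IgA across the epithelium, at 3902, 3209.5 and 3392 CPM against 4091, 4484 and 4369.7 CPM (log2FC -0.30, adjusted p = 0.243, not past the unadjusted limit without 10 °C replicate 2, 10 °C replicate 3, 22 °C replicate 2 or 22 °C replicate 3). Plasma cell markers summed to 6762, 7759 and 6390.4 CPM at 10 °C and 8659.5, 9256 and 8435 CPM at 22 °C, apart and lower in the cold. Of 10 such markers Igha, the heavy chain of IgA, had log2FC -0.46 (adjusted p = 0.258, not past the unadjusted limit without 10 °C replicate 1, 10 °C replicate 3, 22 °C replicate 1 or 22 °C replicate 2), and Igkc, the kappa light chain, -0.24 (adjusted p = 0.245, which no longer passed in 5 of the 6 fits without a single library).

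B cell markers differed between libraries of the same group. The 15 B cell and follicle markers summed to 33.4, 134 and 371 CPM at 10 °C and 42.6, 234 and 579 CPM at 22 °C, and none passed the test. Of 16 T cell markers the receptor subunit Cd3e (log2FC -0.64, adjusted p = 0.179), Cd4 (-0.61, adjusted p = 0.252) and the chemokine Ccl5 (-0.51, adjusted p = 0.274) fell. Without 10 °C replicate 1, 10 °C replicate 2, 22 °C replicate 2 or 22 °C replicate 3 a single marker fell, while 9 fell without 22 °C replicate 1. Of 11 macrophage markers Csf1r, the receptor for macrophage colony-stimulating factor, fell with log2FC -0.47 (adjusted p = 0.143) and the integrin Itgam with -0.44 (adjusted p = 0.193). Cx3cr1 (-0.35) and the complement component C1qa (-0.17) also fell, and neither passed without 10 °C replicate 1, 22 °C replicate 1 or 22 °C replicate 2. The 10 MHC class II genes and the 11 fibroblast and matrix genes did not pass the test, although 2 MHC genes fell without 22 °C replicate 1 and 2 fibroblast genes without 10 °C replicate 2 or 22 °C replicate 3. Of 22 interferon response genes 1, the guanylate-binding protein Gbp4, fell (log2FC -0.46, adjusted p = 0.26, not past the unadjusted limit without 10 °C replicate 1, 10 °C replicate 2 or 22 °C replicate 2). Without 22 °C replicate 1, 4 interferon response genes fell and 2 were called. Of 14 smooth muscle markers Synpo2 fell (log2FC -0.46, adjusted p = 0.196, not past the unadjusted limit without 10 °C replicate 3), and 4 fell without 22 °C replicate 3. Of 10 neuron and glia markers 1, the neuropeptide Vip, rose with log2FC 0.38 (adjusted p = 0.162). Another 1 fell and was called, and the median log2FC of the list was -0.15. None of these markers fell without 10 °C replicate 3, 22 °C replicate 1 or 22 °C replicate 3. Of 9 endothelial markers Emcn rose (log2FC 0.42, adjusted p = 0.236, not past the unadjusted limit without 10 °C replicate 2, 10 °C replicate 3, 22 °C replicate 1 or 22 °C replicate 2), and of 3 tested pancreatic markers the protease Ctrl rose (log2FC 0.83, adjusted p = 0.196, not past the unadjusted limit without 22 °C replicate 2). Over all genes tested 10.0% rose and 7.12% fell. The counts for interferon response, smooth muscle and endothelial genes were near or below those shares. In all, summed CPM was apart between the groups for 4 of 20 marker lists, epithelium, distal small intestine, tuft cell and plasma cell, with p = 0.1 in each by the two-sided exact permutation test, the smallest p that 3 against 3 libraries allow.

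Lars2, mitochondrial leucyl-tRNA synthetase (chromosome 9, 123366927 to 123462666 in GRCm38), had the largest fall among called genes with an average log2 CPM above 2 and groups apart. It was at 861, 552 and 436 CPM at 10 °C and 5490.4, 5661 and 10207 CPM at 22 °C, with the groups far apart (log2FC -3.53 ± 0.35 SE, adjusted p = 0.0455). It took 0.0428 to 0.0836% of all counts in the cold libraries and 0.564 to 1.03% in the controls. Its change was not of 1 sign in the other 7 tissues, from -1.79 in liver to 3.58 in spleen. Whether all reads counted for Lars2 came from its own mRNA was not tested.

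The remaining genes that passed an adjusted p of 0.05 all rose. Ankrd37, an ankyrin repeat protein, was at 12.3, 11.8 and 11.3 CPM against 4.61, 4.64 and 5.07 CPM (log2FC 1.30 ± 0.12 SE, adjusted p = 0.0289). Cdr2, a coiled-coil protein known as a cerebellar degeneration antigen, was at 44.5, 45.2 and 46.1 CPM against 25.5, 27.1 and 27.3 CPM (log2FC 0.77 ± 0.07 SE, adjusted p = 0.0289). Crip1, a LIM protein abundant in intestine, was at 1800.0, 1843 and 1764 CPM against 1039.8, 1111 and 1091 CPM (log2FC 0.74 ± 0.08 SE, adjusted p = 0.0467). Libraries of a group differed little in these 3 genes. Kyat1, a kynurenine aminotransferase, was at 58.4, 67.5 and 70.4 CPM against 29.6, 28.7 and 20.8 CPM (log2FC 1.31 ± 0.15 SE, adjusted p = 0.0488). Hist1h2ad, a histone H2A gene with near-identical copies whose reads may be shared, was at 19.2, 18.03 and 19.6 CPM against 8.57, 10.5 and 8.91 CPM (log2FC 1.02 ± 0.11 SE, adjusted p = 0.0488). These calls depend on the libraries, since 0 genes passed the adjusted threshold without 10 °C replicate 1, 10 °C replicate 3 or 22 °C replicate 2, 1 passed without 10 °C replicate 2, 5 without 22 °C replicate 3 and 17 without 22 °C replicate 1.

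Among the 10 largest rises with non-overlapping groups were also genes of other functions. Ada, adenosine deaminase, was at 797, 582 and 658 CPM against 283, 231 and 105 CPM (log2FC 1.72 ± 0.33 SE, adjusted p = 0.096). Acta1, skeletal muscle actin, was at 96.2, 27.5 and 92.3 CPM against 21.5, 18.9 and 24.99 CPM, with 10 °C replicate 2 close to the controls (log2FC 1.72 ± 0.42 SE, adjusted p = 0.135). Hbb-bt, a β-globin with a near-identical copy, was at 9.68, 16.04 and 13.7 CPM against 5.83, 3.85 and 3.2 CPM (log2FC 1.62 ± 0.27 SE, adjusted p = 0.0736), and Nyx, nyctalopin, at 5.52, 6.69 and 5.95 CPM against 2.27, 1.33 and 1.98 CPM (log2FC 1.70 ± 0.22 SE, adjusted p = 0.0603). Among the 10 largest falls chosen in the same way, Mt2, a metallothionein, was at 1.13, 1.45 and 1.57 CPM against 1.75, 12.7 and 6.25 CPM, with 22 °C replicate 1 close to the cold libraries (log2FC -2.33 ± 0.64 SE, adjusted p = 0.16). Abca12, a lipid transporter, was at 15.4, 8.38 and 9.27 CPM against 30.1, 24.7 and 20.9 CPM (log2FC -1.19 ± 0.25 SE, adjusted p = 0.106), and Klf11, a Krüppel-like repressor, at 5.38, 6.99 and 6.45 CPM against 11.8, 11.7 and 12.2 CPM (log2FC -0.93 ± 0.13 SE, adjusted p = 0.0608). Cldn8, a tight junction protein, and Zc3h6, a zinc finger protein, had log2FC -0.95 and -0.92, both with groups apart.

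The study's own lists of thermogenic and fatty acid metabolism genes came from published markers and Gene Ontology terms. Of 147 thermogenic genes counted, 131 were tested, of which 20 rose and 9 fell, with 7 and 3 called, and with library-size scaling 13 rose and 13 fell. Without 10 °C replicate 1 the counts were 13 and 4, and 5 fell without 22 °C replicate 1. Of 282 fatty acid metabolism genes 240 were tested, of which 38 rose and 12 fell, with 9 and 2 called, and with library-size scaling 28 rose and 19 fell, while 7 fell without 22 °C replicate 1 or 22 °C replicate 2. Over all genes tested 10.0% rose and 7.12% fell, with 1.44% and 1.26% called. The share of fallen genes in either list was no larger than that over all genes. The median log2FC was 0.05 in the thermogenic and 0.08 in the fatty acid list.

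Whether a change differed from that of the other tissues was asked by testing the ileum change minus the mean change of brain, hypothalamus, liver, spleen, interscapular brown fat, inguinal and perigonadal fat at 10 °C. Same-numbered libraries of different tissues may come from the same mice, which the fit left out. No gene passed an adjusted p of 0.05 in edgeR, and 544 of 10733 genes (5.07%) had an unadjusted p of at most 0.05. The brain control library of replicate 2 stood apart, with Alb, albumin, at 37860 CPM, against 1.57 to 7.11 CPM in the other 5 brain libraries. Without it 753 genes had p of at most 0.05, and Bok, a BCL-2 family protein, passed adjustment (difference 1.01, adjusted p = 0.0109). Values below are given with all libraries and then without that library. Per2 differed by 1.20 (adjusted p = 0.164) and by 1.21 (adjusted p = 0.0918), its log2FC being 0.96 in ileum and between -0.87 and 0.20 elsewhere. Nr1d1 differed by -1.32 (adjusted p = 0.553) and by -1.30 (adjusted p = 0.298), although it also fell in 4 of the 7 other tissues. Of 16 clock genes tested here 2 lay above and 4 below the other tissues, or 2 and 3 without that library. Cry1, which rose in 3 other tissues, did not differ at p of at most 0.05 (difference 0.26, adjusted p = 1). Of 13 heat shock list genes 5 lay above and 1 below the other tissues under both settings. Hspa1b differed by 1.43 (adjusted p = 0.892) and by 1.36 (adjusted p = 0.577). Its log2FC elsewhere ran from -0.35 to 0.82. The paper names Hspa1b among its most widely shared upregulated genes at 10 °C, over more tissues than here and with another test. Scd1 differed by 2.05 (adjusted p = 0.639) and by 1.67 (adjusted p = 0.105), Cdr2 by 0.71 (adjusted p = 0.585) and by 0.76 (adjusted p = 0.105), and Kyat1 by 1.20 (adjusted p = 0.698) and by 0.99 (adjusted p = 0.105). Of the fat absorption genes 12 of 22 passed the filter in this comparison, and 3 of them, Slc27a4, Gpat3 and Cd36, lay above the other tissues at p of at most 0.05 with all libraries. Fabp2, Apoa1, Slc2a2 and Lrat did not enter it because of low counts in some tissue.

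Whether the cold and the warm change differed was asked by testing the change at 10 °C minus the change at 34 °C, each against its own controls. The warm libraries held a difference in proximal content. The proximal markers summed to 18.6, 2801 and 108 CPM at 34 °C and to 12.3, 41.95 and 12.9 CPM in the warm controls, so that 34 °C replicate 2 stood far above the other 5. At 34 °C, 588 genes rose (4.52% of 13023) and 423 fell (3.25%), and without that library 239 rose (1.84% of 13008) and 223 fell (1.71%). No gene passed an adjusted p of 0.05 in edgeR at 34 °C with all libraries. The difference between the cold and the warm change had an unadjusted p of at most 0.05 in 1569 of 12506 genes (12.5%), in 1260 without 34 °C replicate 2, and passed adjustment in 0 genes in edgeR and 209 in DESeq2.

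Some heat shock genes differed between the cold and the warm change at the unadjusted limit. Animals, supplier, kit and sequencing site differed between the experiments along with the temperature. Of 13 list members, 7 lay higher and 1 lower in the cold than in the warm change at p of at most 0.05, with and without 34 °C replicate 2. Dnajb1 had log2FC 0.92 at 10 °C and -0.43 (adjusted p = 0.594) at 34 °C, a difference of 1.35 ± 0.18 SE (adjusted p = 0.0987). Hspa1b had -1.26 (adjusted p = 0.594) at 34 °C, a difference of 2.94 ± 0.63 SE (adjusted p = 0.143), and Hspa1a -1.63 (adjusted p = 0.594), a difference of 3.33 ± 0.67 SE. Hsph1 had -0.997 (adjusted p = 0.594), a difference of 2.35 ± 0.44 SE. Without 34 °C replicate 2 the differences were 1.29, 2.55, 3.10 and 2.35 for Dnajb1, Hspa1b, Hspa1a and Hsph1 in turn. The log2FC at 34 °C was then -0.39 for Dnajb1, -0.89 for Hspa1b, -1.42 for Hspa1a and -1.01 for Hsph1. At 34 °C Dnajb1, Hspa1a and Hsph1 passed the unadjusted limit of 0.05 with all libraries and none of the 4 genes passed it without that library. Without warm 22 °C replicate 1 the differences of Hsph1, Dnajb1 and Hspa1a passed adjustment, at 0.0129, 0.0168 and 0.0411.

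Other groups also held genes whose cold and warm changes differed at the unadjusted limit. Of 24 cholesterol synthesis genes, 14 lay higher in the cold than in the warm change and 11 without 34 °C replicate 2, and 6 of 24 fell at 34 °C, or 4 without that library. Of 16 genes of the unfolded protein and integrated stress responses 7 lay higher in the cold change, with and without it. Atf3 fell at 34 °C (-0.93, adjusted p = 0.594, and -0.92 without 34 °C replicate 2), as did Ddit4 (-0.60, adjusted p = 0.594, and -0.49 without it). Of 22 xenobiotic genes 8 lay lower in the cold change, or 7 without that library, and 9 of 25 rose at 34 °C, or 5. Crip1 had log2FC -0.003 at 34 °C, a difference of 0.74 ± 0.12 SE (adjusted p = 0.0988), and the difference was 0.76 without 34 °C replicate 2.

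The warm values of the absorption genes depended on 34 °C replicate 2. Of 22 fat absorption genes 5 lay higher and 1 lower in the cold change, or 6 and 0 without 34 °C replicate 2. Apoa1, higher in the cold change under both settings, differed by 0.47 (adjusted p = 0.388) and 0.57 (adjusted p = 0.401). Apoa4 had log2FC 2.64 at 34 °C (adjusted p = 0.594) and 0.62 without it, Apoc3 2.18 (adjusted p = 0.594) and 0.32, and Fabp1 5.05 (adjusted p = 0.594) and 0.76. These 3 genes passed the unadjusted limit at 34 °C with all libraries and not without that one. Fabp2 had 0.83 (adjusted p = 0.595) and 0.41, and Rbp2 1.64 (adjusted p = 0.594) and 0.44. Lrat rose at 34 °C under both settings, by 0.64 and 0.57. Of 13 sugar genes 0 differed between the cold and the warm change at p of at most 0.05, and 1 without 34 °C replicate 2. Apoc2 differed by -0.58 (adjusted p = 0.841) and, without that library, by 1.58 (adjusted p = 0.166).

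**Figure D5:**
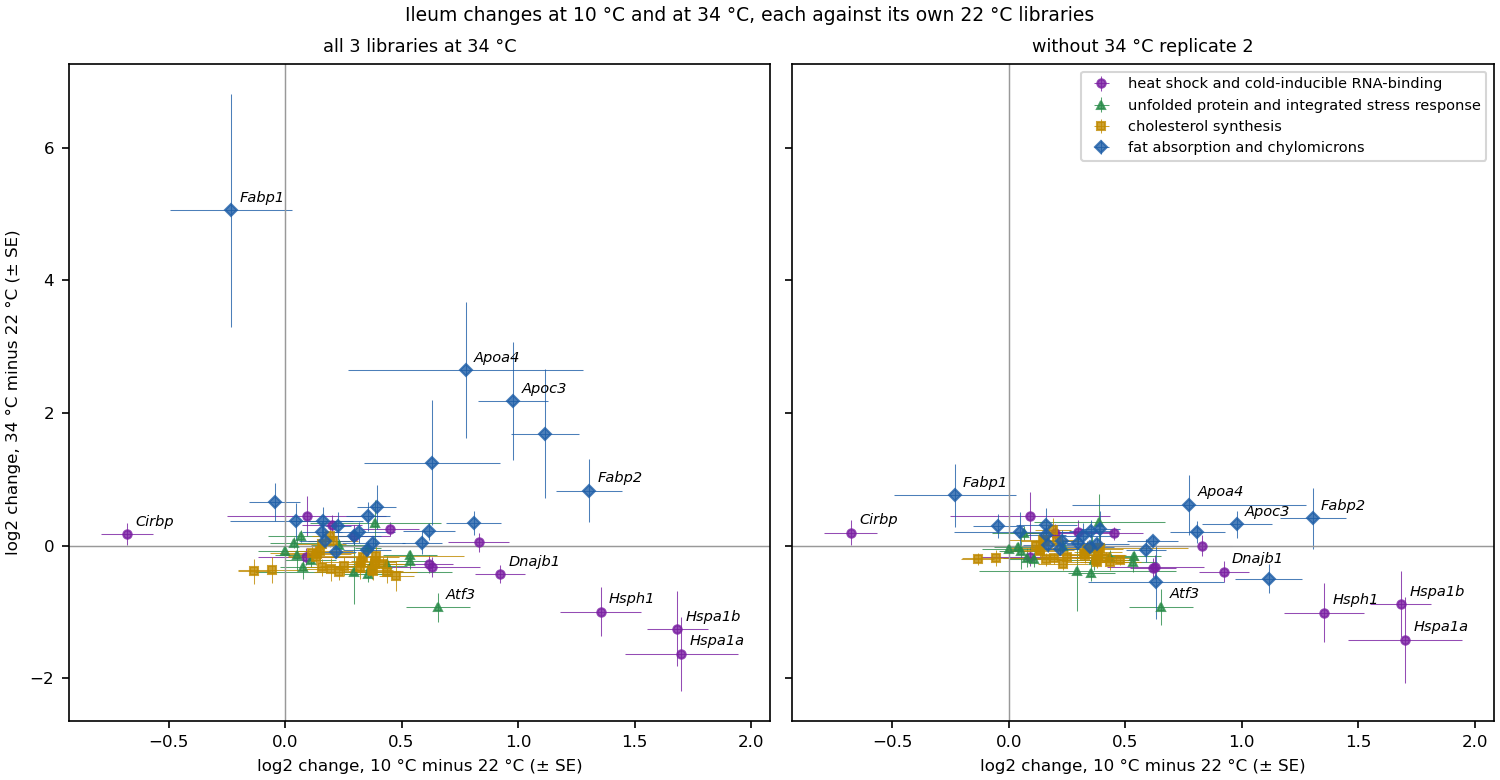
Change at 10 °C (horizontal) against change at 34 °C (vertical) in ileum, in log2 with ± SE bars, each against its own 22 °C libraries, for the members of 4 gene lists, with all 3 libraries at 34 °C (left) and without replicate 2 (right). Hspa1a, Hspa1b, Hsph1 and Dnajb1 lie at the lower right in both panels, whereas Fabp1, Apoa4 and Apoc3 lie between 0.32 and 0.76 on the vertical axis once that library is left out.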

How the data were processed

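RNA-seq of ileum was analysed from the deposited gene count tables, in which the authors counted reads per gene after alignment to mm10 (the submitters' processing notes list STAR 2.5.3a, HTSeq 0.6p1 and Picard 1.141). The counts are raw and were not normalized by the authors. The 8-tissue table gave 3 libraries of ileum at 10 °C and 3 at 22 °C, and a second table the 34 °C experiment. The change at 34 °C was fitted on the second table alone. Only for the difference between the cold and the warm change were the ileum libraries of both joined by gene name. That fit kept each experiment and temperature as its own group and shared scaling and dispersion. Temperatures and pooling come from the study's methods, because the labels give a 34 °C protocol for every sample. Columns of other samples in those files, 30 in all, were not used.

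The filter kept a gene when its log2 CPM averaged more than 0 over the libraries, counts were scaled by TMM, and edgeR 4.0.16 in R 4.3.3 (quasi-likelihood F-test, Benjamini-Hochberg adjustment, study limits of p at most 0.05 and over 1.5-fold) compared the groups. CPM values were computed from the counts with TMM-scaled library sizes, and SE is the log2FC divided by the square root of F. The change minus the mean change in the 7 other tissues, and minus the change at 34 °C, were tested as contrasts. Alternatives were edgeR's exact test, DESeq2 1.42.0, library-size and RLE scaling, 2 other filters, a replicate block and leaving out each library. The fit at 34 °C without replicate 2 was added after seeing the data. The test script was checked on simulated data.

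Named genes were those past an adjusted p of 0.05, the 10 largest called rises and the 10 largest called falls with average log2 CPM above 2 and groups apart, members of the fixed lists and the elongases Elovl1 and Elovl7. Predicted genes and receptor segments were passed over. The members and lists were chosen with earlier results of these data known. Of 13 and 18 genes with promoter searches, 9 and 16 had a RefSeq promoter in the GRCm38.p6 table. Libraries totalled 16259467 to 25964912 counts and no 2 held identical values. Some named genes are not reported here.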

Additional observations from a re-analysis of the deposited data

How the results depend on the processing

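No called gene changed sign under any alternative, and 298 to 376 of the 381 called genes stayed called under other tests, scalings, the replicate block and filterByExpr (381 with the lowest filter), against 252 to 283 when a library was left out. The number called was 9 when the adjusted p of 0.05 replaced the study's limits. The number of lower genes, 178, was 272 with the lowest filter, 293 with the replicate block and 154 to 314 without single libraries. The 9 genes at adjusted p under 0.05 became 332 by edgeR's exact test, 556 by DESeq2, 4 with library-size scaling or filterByExpr, 21 with the lowest filter, 88 with the replicate block and 0 to 17 without single libraries. Same-numbered libraries had deviation correlations of 0.42, -0.08 and 0.42, and differently numbered ones ran from -0.49 to 0.12. Whether the numbers pair the samples was not tested, and the main fit did not use them.

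Against the other tissues, 0 genes at adjusted p became 15 against liver alone, 1 without brain 22 °C replicate 2 and 0 without any single ileum library. Against 34 °C, 0 became 209 by DESeq2 and 0 to 4 without single libraries. The 1011 genes at p of at most 0.05 at 34 °C became 462 without 34 °C replicate 2. The 4 of 20 marker lists whose summed CPM was apart became 4 to 7 without single libraries. The limit of p was lost by 9 single-gene results with library-size scaling, 4 with the replicate block, 2 each with DESeq2 and the exact test, and in 78 cases without a single library. With the replicate block 12 of 15 B cell markers fell, against 0 without it. The cause of these shifts was not tested. With 3 pooled libraries a group, changes under the spread between pools were not detectable.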

Other observations

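Beside Ada, 2 further genes of purine handling, chosen after their values were seen and not from a list of such genes, are given as values of single genes. Nt5e, which makes adenosine from AMP at the cell surface, was at 171, 147 and 166 CPM at 10 °C and 85.9, 49.9 and 57.8 CPM at 22 °C, with the groups apart (log2FC 1.32, adjusted p = 0.0608). Slc28a2, a concentrative carrier for purine nucleosides, was at 223, 182 and 240.4 CPM against 115, 70.4 and 52.1 CPM (log2FC 1.45, adjusted p = 0.0913). For Ada, Nt5e and Slc28a2 every cold library lay above every control.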
